A study of Mus musculus with 8 samples.

Results

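Integrin and laminin subunit genes were followed across mouse neural stem and progenitor cells with and without extra NFIA. Members were genes whose symbol, reached through the transcript accession of each array probe, begins with Itga, is Itgb with a number from 1 to 8, or is Lama, Lamb or Lamc with a number from 1 to 5. The values of 36 such genes are described, of which 34 had a probe among 19752 genes on the array. To be tested, a gene needed a probe that the scanner software called well above background in both replicates of some group, and 28 members (18 integrin and 10 laminin genes) met this among 13790 genes. The transcripts behind the 6 members that passed a test were NM_008398 for Itga7, NM_176922 for Itga11, NM_008481 for Lama2, NM_010681 for Lama4, NM_001081171 for Lama5 and NM_008483 for Lamb2.

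Integrins are cell surface receptors made of 1 alpha and 1 beta subunit, and they tie the matrix outside the cell to the actin skeleton inside it. Laminins are trimers of an alpha, a beta and a gamma chain that form the sheet of the basement membrane and are the ligands of several integrins. In the developing brain, radial glia hold on to the basement membrane at the pial surface through such contacts, and neurospheres deposit laminin around their cells.

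The cells were grown as neurospheres from embryonic stem cells in cultures that mixed an NFIA-overexpressing (OE) line with wild-type (WT) cells, and the 2 cell types were separated by fluorescence-activated sorting before RNA was taken. NFIA is a transcription factor that acts early in the formation of astrocytes. The groups were control cells of primary neurospheres (PNs_CT) and NFIA-overexpressing cells of primary neurospheres (PNs_NFIA_OE), both at passage 0 and day 6 after embryoid bodies, and control and NFIA-overexpressing cells of secondary neurospheres (SNs_CT and SNs_NFIA_OE), both at passage 1 and day 12. Each group had 2 arrays, and no label says that they came from separate cultures, so p-values measure only the spread between these arrays, whose number limits the precision. Control cells shared their cultures with the NFIA cells. The promoter that drives NFIA, and whether the line is 1 clone, are not given in the sources used here.

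Levels below are log2 of the background-subtracted signal minus the log2 of the 75th percentile of the same array, and each unit of difference is a factor of 2. Summed levels of marker lists are instead not in log2. They are ratios of signal to that percentile, added over the tested genes of the list. Between 45.4% and 56.4% of spots on an array were well above background. All 8 neural stem and progenitor markers examined, among them Nes, Sox1, Sox2 and Pax6, were well above background on both arrays of each of the 4 groups. So were 7 of 7 pluripotent markers in each PNs group and 6 in each SNs group. Of 6 tested epithelium markers, 6 were so in each PNs group, 4 in SNs_CT and 2 in SNs_NFIA_OE. The brighter Nfia probe read -1.30 and -0.30 in PNs_CT, -0.24 and 0.93 in PNs_NFIA_OE, 1.00 and 0.61 in SNs_CT, and 1.70 and 1.62 in SNs_NFIA_OE, and its difference did not pass the test (1.00 ± 0.32, adjusted p = 0.171 in limma). The dimmer Nfia probe, which was not the one tested, differed by 1.95. It read -3.88 and -2.99 in PNs_CT, -1.88 and -0.88 in PNs_NFIA_OE, -1.68 and -3.19 in SNs_CT, and -0.08 and -1.11 in SNs_NFIA_OE. The scanner file attached to 7 of the 8 samples held another array than the one the authors' value table gives under that title, and values here follow the table. The sample titles, which set the groups, also conflict with the source names: all 4 control samples carry the source name of the NFIA OE line, and PNs_NFIA_OE 1 and SNs_NFIA_OE 2 carry that of the WT. With arrays taken as attached, or with groups taken from the source names, 0 members passed in each of the comparisons below. On the slide, passage followed the row and cell type the column, and their differences cannot be told apart from those of slide position.

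The sequence before the gene start is shown for those 3 of the 6 members that passed a test below whose start had an entry outside the annotated gene, since NFI proteins bind DNA at a palindrome. The half-site of that palindrome reads TTGGC. On the opposite strand it reads GCCAA. The stretches are from RefSeq on GRCm38.p6, run 5′ to 3′ toward the gene, end where its annotated span begins, and have any half-site in capitals. They lie at chr2:180225905-180226109 (minus strand) for Lama5, chr9:108479612-108479846 (plus strand) for Lamb2 and chr9:62677605-62677854 (plus strand) for Itga11.
Lama5: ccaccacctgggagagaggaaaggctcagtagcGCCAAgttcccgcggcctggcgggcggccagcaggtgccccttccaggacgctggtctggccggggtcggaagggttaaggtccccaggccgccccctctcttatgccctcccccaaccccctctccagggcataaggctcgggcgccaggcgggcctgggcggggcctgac
Lamb2: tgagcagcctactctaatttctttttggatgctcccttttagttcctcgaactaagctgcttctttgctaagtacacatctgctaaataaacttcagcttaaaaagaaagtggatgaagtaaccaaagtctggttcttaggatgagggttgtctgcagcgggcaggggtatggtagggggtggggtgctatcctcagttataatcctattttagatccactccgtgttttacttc
Itga11: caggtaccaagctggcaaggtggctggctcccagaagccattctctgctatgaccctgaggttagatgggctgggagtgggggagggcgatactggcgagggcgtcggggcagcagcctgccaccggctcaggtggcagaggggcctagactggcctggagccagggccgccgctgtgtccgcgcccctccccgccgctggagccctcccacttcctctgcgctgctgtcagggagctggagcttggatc
The half-site stood once before Lama5 and was not in the windows shown for Lamb2 and Itga11. Searched on both strands over the 250 bases before the start, it was present at 10 of 26 starts of 23 members (38.5%) and at 41.5% of 32851 starts of all genes. The full palindrome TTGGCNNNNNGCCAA was at 0 member starts and at 0.0365% of all starts. A match here is only a match of letters. The Lama2 entry lay at least partly within the annotated gene and is not shown. It held the half-site once, at position -197 from its start. Itga7 and Lama4 had no entry.

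The first comparison set 4 NFIA_OE arrays against 4 CT arrays over both passages and asked which subunits go with NFIA whatever the passage. Itga7, the alpha subunit of a laminin receptor best known from muscle, and Lama5, a laminin alpha chain found in many basement membranes, were higher in NFIA_OE cells, about 15-fold and 3.32-fold. They were the 2 of 28 tested members that passed (limma, Benjamini-Hochberg adjusted p under 0.05 over all genes), both upward, where 1.78% of all genes passed upward and 0.189% downward. At an unadjusted p under 0.05, 9 members were higher and 0 lower, against 10.3% and 7.37% of all genes. An NFIA_OE mean above the CT mean was found for 24 of the 28 members, with a median of 0.58, while 44.6% of all genes had one and their median was -0.05. Itga1, Itga3, Itga5, Itgal, Itgb2, Itgb4 and Itgb7 were well above background on both arrays of a group only in NFIA_OE cells. They were kept for testing through those groups, and Lamb3 through PNs_CT alone. The counts of members with a higher NFIA_OE mean therefore depend in part on this filter.

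Itga7 read -2.57 and -3.43 in PNs_CT, 0.75 and 0.82 in PNs_NFIA_OE, -2.06 and 0.51 in SNs_CT, and 2.71 and 3.80 in SNs_NFIA_OE. Every NFIA_OE array was above every CT array, although SNs_CT 2 came close to the PNs_NFIA_OE pair. The difference was 3.91 ± 0.54 (SE, 4 arrays a side, adjusted p = 0.0179 in limma), with 3.79 ± 0.81 in primary and 4.03 ± 0.81 in secondary neurospheres. The call was lost, with adjusted p from 0.0519 to 0.0637, when PNs_CT 2, PNs_NFIA_OE 2, SNs_NFIA_OE 1 or SNs_NFIA_OE 2 was left out. It was also lost without the pair of NFIA_OE arrays whose source name says WT (3.65, adjusted p = 0.119). Of 5 muscle markers, Myog, Myod1, Des and Ckm were well above background on 0 arrays. The fifth, Myh3, was above it on 4. Its signal as a ratio to the 75th percentile, not in log2, was 0.182 in SNs_NFIA_OE 2 and from 0.023 to 0.092 elsewhere.

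Lama5 read 1.28 and 1.06 in PNs_CT, 2.78 and 3.29 in PNs_NFIA_OE, 1.41 and 1.61 in SNs_CT, and 3.72 and 2.50 in SNs_NFIA_OE. The 4 CT arrays lay within a narrow band below all NFIA_OE arrays at either passage. The difference was 1.73 ± 0.28 (adjusted p = 0.0287 in limma), with 1.87 ± 0.42 in primary and 1.60 ± 0.42 in secondary neurospheres. Leaving out PNs_CT 1 or 2, PNs_NFIA_OE 1 or 2, SNs_CT 1 or SNs_NFIA_OE 1 took the adjusted p to between 0.0550 and 0.103, with differences from 1.51 to 1.80.

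Markers of other cell types also differed in this comparison. Of 10 mesenchyme markers, Prrx1 (1.88 ± 0.24, adjusted p = 0.0145) and Acta2 (1.69 ± 0.31, adjusted p = 0.0415) were higher in NFIA_OE cells in limma, and the list's median was 0.62. The passages differed in this: the median was 1.84 in primary neurospheres, with 10 positive genes, and -0.65 in secondary ones, with 3. Of 5 tested markers of extraembryonic endoderm, 4 were positive with a median of 1.24, and Sox7 passed upward (2.64 ± 0.26, adjusted p = 0.0122 in limma). The list's median was 2.26 in primary neurospheres, with 5 positive genes, and -0.29 in secondary ones, with 2. Gata4, Gata6 and Afp were above background on 1 array each and not tested. Of 6 astrocyte markers 0 passed in limma and 3 had an unadjusted p under 0.05, with a median of 1.77, and their summed level was from 4.13 to 55.7 in CT cells and from 6.82 to 73.7 in NFIA_OE cells. Other lists had a negative median. It was -1.14 for 5 neuron markers, with 0 positive and 3 at an unadjusted p under 0.05. It was -0.71 for 6 tested epithelium markers (1 positive) and -0.48 for 7 pluripotent markers (2 positive). In these 3 lists 0 genes passed in limma. The part of these cell types in the differences of Itga7 and Lama5 was not tested.

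Lamb2 also had all 4 NFIA_OE arrays above the CT arrays, which makes 3 members with no overlap upward (background 3.68%) and 0 downward (2.25%). It encodes a laminin beta chain of nerve-muscle contacts, kidney and the pial surface. It read 0.51 and 0.75 in PNs_CT, 0.90 and 1.40 in PNs_NFIA_OE, 0.60 and 0.45 in SNs_CT, and 2.52 and 2.61 in SNs_NFIA_OE. The SNs_NFIA_OE pair stood well above the other 6 arrays, which lay within 1 log2 unit of each other. Over both passages the difference was 1.28 ± 0.32 (adjusted p = 0.101).

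**Figure D1:**
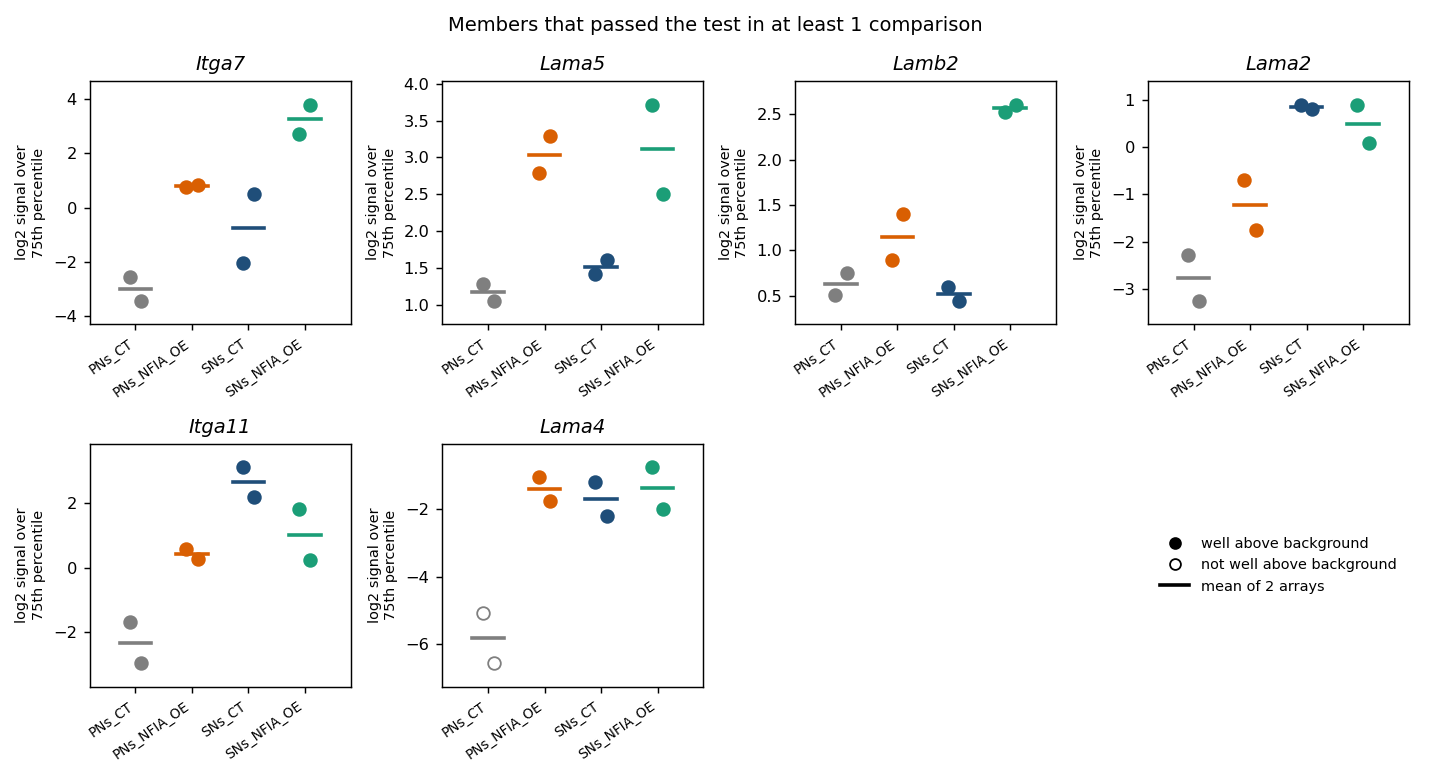
Level (log2 signal over the array's 75th percentile) on each of 8 arrays for the 6 members that passed in at least 1 comparison, with a line at each group's mean of 2 arrays and open circles for arrays not well above background. Itga7 and Lama5 are higher in both NFIA_OE groups, Lamb2 stands out at 2.52 and 2.61 in SNs_NFIA_OE, and Itga11, Lama2 and Lama4 are lowest in PNs_CT.

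Among receptor subunits, Itgb5, Itgav, Itga6, Itga8 and Itgb2 had an unadjusted p under 0.05 over both passages and did not pass after adjustment. Itgb5 encodes the beta partner of the alpha v subunit in a vitronectin receptor. It read 1.66 and 1.96 in PNs_CT, 2.67 and 3.49 in PNs_NFIA_OE, 2.28 and 2.94 in SNs_CT, and 3.88 and 3.38 in SNs_NFIA_OE. NFIA_OE arrays were above CT arrays at each passage, and the groups overlapped across passages through SNs_CT 2 (1.14 ± 0.26, adjusted p = 0.0756). Itgav, the alpha v subunit, binds ligands that carry the RGD motif, such as vitronectin. Its levels were -1.86 and -1.67 in PNs_CT, -1.50 and -1.30 in PNs_NFIA_OE, -1.47 and -1.58 in SNs_CT, and -0.27 and -0.66 in SNs_NFIA_OE. The secondary NFIA pair was the highest of the 4 groups (0.71 ± 0.20 over both passages, adjusted p = 0.136).

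Itga6, the alpha subunit of the main laminin receptor of neural stem cells, read 4.68 and 5.35 in PNs_CT, 5.23 and 5.66 in PNs_NFIA_OE, 4.85 and 4.19 in SNs_CT, and 6.25 and 5.55 in SNs_NFIA_OE. NFIA_OE and CT arrays overlapped in primary neurospheres and not in secondary ones (0.91 ± 0.31 over both, adjusted p = 0.197). Itga8, an RGD-binding alpha subunit whose ligand nephronectin guides kidney development, read -2.87 and -4.28 in PNs_CT, -1.25 and -1.68 in PNs_NFIA_OE, -1.23 and -1.31 in SNs_CT, and -0.45 and -1.13 in SNs_NFIA_OE. Only the PNs_CT pair lay apart, and the difference was 1.30 ± 0.43 (adjusted p = 0.188). Itgb2, the beta subunit of leukocyte integrins, read -4.29 and -3.91 in PNs_CT, -3.75 and -3.30 in PNs_NFIA_OE, -4.44 and -4.88 in SNs_CT, and -4.11 and -3.88 in SNs_NFIA_OE. It was well above background on 3 arrays, all from primary neurospheres (0.62 ± 0.20, adjusted p = 0.165).

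Taken within primary neurospheres, the comparison of NFIA_OE with CT cells gave 0 of 28 members past the test in limma, where 0.312% of all genes passed, each of them upward. At an unadjusted p under 0.05, 10 members were higher and 0 lower, against 6.84% and 2.73% of all genes. Lama4, a laminin alpha chain of vessels and mesenchyme, had the smallest p and was at least 9.25-fold higher without passing (4.40 ± 0.65, 2 arrays a side, adjusted p = 0.0622). An "at least" value sets the mean of the brighter side against the dimmer side with its arrays raised to their lowest signal well above background. Itga7 came next (3.79 ± 0.81, adjusted p = 0.141) and passed without SNs_CT 1 or SNs_CT 2 (adjusted p = 0.0302 each), which gave 1 call in each case.

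Within secondary neurospheres, Lamb2 was the 1 member past the test, upward, against 0.486% of all genes upward and 0.450% downward. It was 4.12-fold higher in NFIA_OE cells (2.04 ± 0.27, adjusted p = 0.0306 in limma). Without PNs_CT 1 or 2, SNs_CT 1, or SNs_NFIA_OE 1 or 2 the adjusted p was between 0.0708 and 0.111, while the difference stayed between 1.97 and 2.12 over all 8 omissions. Fitted on the SNs groups alone, the same difference had an adjusted p of 0.149. Itga7 came next and did not pass (4.03 ± 0.81, adjusted p = 0.0721). It passed under 3 alternatives, one of them the omission of SNs_CT 2 (adjusted p = 0.0247). At an unadjusted p under 0.05, 6 members were higher and 2, Itga11 and Lamc3, were lower, against 8.77% and 6.32% of all genes. Of the 28 members, 16 had a positive difference in secondary neurospheres, against 48.5% of all genes, where 24 had one in primary neurospheres, against 42.7%. The limit given above for members kept through NFIA_OE groups alone applies to these counts too.

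**Figure D2:**
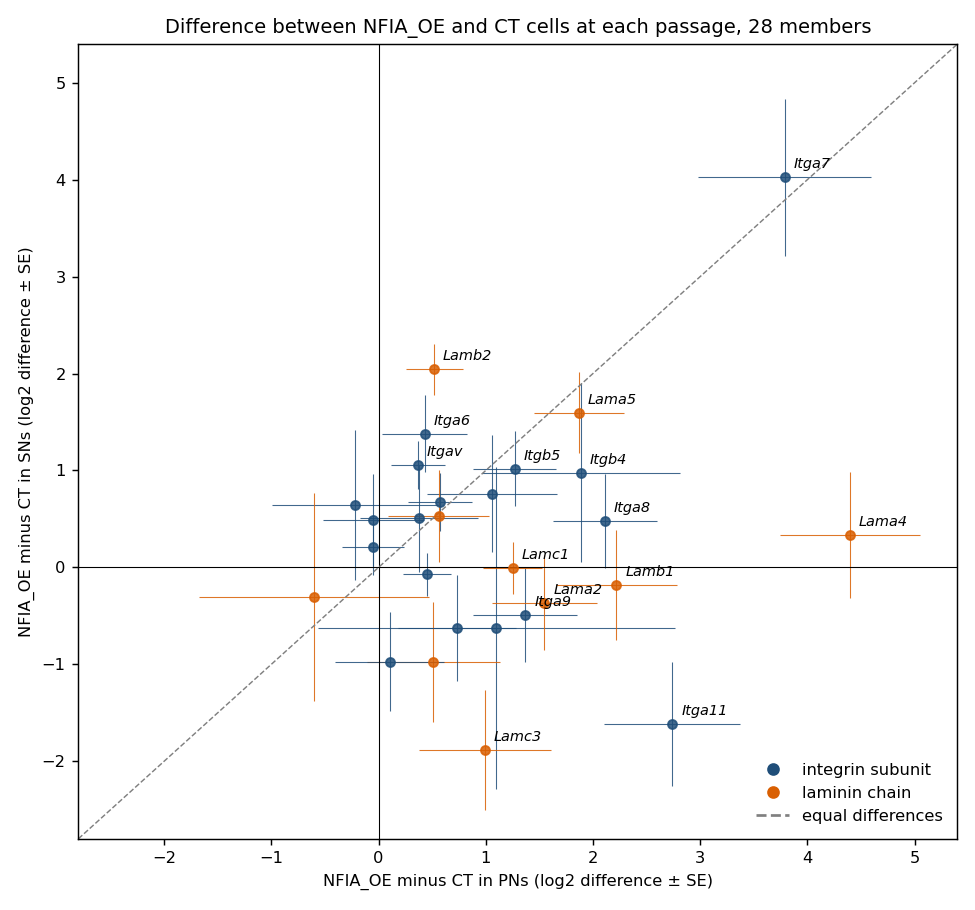
Difference between NFIA_OE and CT cells (log2, ± SE from limma, 2 arrays a side) in primary neurospheres on the horizontal axis and in secondary neurospheres on the vertical axis for the 28 tested members, with a dashed line where both are equal. Itga7 (3.79 and 4.03) and Lama5 (1.87 and 1.60) lie near the line, Lamb2 lies above it, and Itga11, Lama4 and Lamc3 lie well below it.

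Whether the NFIA difference itself changed from primary to secondary neurospheres was tested directly. In limma 0 of 28 members and 0 of 13790 genes passed. At an unadjusted p under 0.05 there were 9 members, 8 with a smaller difference in secondary neurospheres and 1, Lamb2, with a larger one (1.53 ± 0.38, adjusted p = 0.376), where 6.75% of all genes had such a p. Of the 8, Itga11 (-4.35 ± 0.90, adjusted p = 0.257) and Lama4 (-4.07 ± 0.92, adjusted p = 0.320) had the smallest p. The others were Lamc3, Lamc1, Lamb1, Lama2, Itga9 and Itga8, with values from -1.26 to -2.88. The difference for Itga7 was 0.24 ± 1.14, with a 95% interval from -2.46 to 2.94, and for Lama5 it was -0.27 ± 0.59, with an interval from -1.67 to 1.13.

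The passage comparison set 4 SNs arrays against 4 PNs arrays. Lama2, the alpha chain of the laminin of muscle and nerve sheaths, was 6.35-fold higher in secondary neurospheres, and Itga7 was 5.09-fold higher. These 2 of 28 members passed, where 3.42% of all genes passed upward and 3.90% downward. At an unadjusted p under 0.05, 10 members were higher and 2 (Itga4 and Itgb2) lower, against 11% and 15.3% of all genes. Of the 28 members 20 had a positive difference, against 42.6% of all genes, and the median was 0.60 for members and -0.08 for all genes. Lama2 read -2.29 and -3.25 in PNs_CT, -0.69 and -1.75 in PNs_NFIA_OE, 0.90 and 0.81 in SNs_CT, and 0.90 and 0.08 in SNs_NFIA_OE. All SNs arrays were above all PNs arrays, and the PNs_CT pair was the lowest. The difference was 2.67 ± 0.47 (adjusted p = 0.0249 in limma), and the second Lama2 probe differed by 2.82. The call was lost without PNs_CT 1 or 2, PNs_NFIA_OE 2 or SNs_NFIA_OE 1 (adjusted p from 0.0567 to 0.0730). It was also lost without the pair of NFIA_OE arrays with a WT source name (3.30, adjusted p = 0.0811).

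For Itga7 the passage difference was 2.35 ± 0.54 (adjusted p = 0.0432 in limma), and the passages overlapped because SNs_CT 1 lay below the PNs_NFIA_OE pair. Leaving out any array other than SNs_CT 1 ended the call, with differences from 1.86 to 2.54 and adjusted p from 0.0593 to 0.129. Without the pair of NFIA_OE arrays with a WT source name it was 2.11 (adjusted p = 0.217).

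Itga4 had a difference of the opposite sign. It encodes an alpha subunit that binds fibronectin and Vcam1, and it read -1.11 and -1.37 in PNs_CT, -1.17 and -1.76 in PNs_NFIA_OE, -4.94 and -2.22 in SNs_CT, and -2.88 and -3.00 in SNs_NFIA_OE. Every SNs array was below every PNs array, and SNs_CT 1, where the probe was not well above background, was the lowest. The difference was -1.91 ± 0.54 and did not pass (adjusted p = 0.0714). It passed without SNs_CT 1 (-1.28, adjusted p = 0.0229) or SNs_CT 2 (-2.36, adjusted p = 0.0407). A second Itga4 probe, above background on 1 array, differed by 0.73 in the opposite direction. Members with no overlap between passages were 2 upward (Lama2 and Itgam, background 4.42%) and 1 downward (Itga4, background 8.03%).

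Itgam, the alpha subunit of the complement receptor of myeloid cells, read 3.66 and 3.84 in PNs_CT, 3.55 and 3.85 in PNs_NFIA_OE, 4.39 and 4.31 in SNs_CT, and 4.06 and 5.61 in SNs_NFIA_OE. SNs_NFIA_OE 2 stood apart from the other 7 arrays. The difference was 0.87 ± 0.33 (adjusted p = 0.145), while the 2 other Itgam probes differed by -0.08 and -0.03. Those probes were far dimmer. The first read from -5.36 to -3.71 and was well above background on 1 array. The second, for the same transcript as the brightest probe, read from -3.63 to -2.95 and was above background on 6. The level of Itgam thus depends on the probe. Of 8 leukocyte markers 1, Csf1r, was tested and was above background on 8 arrays, and Ptprc, Aif1, Tyrobp, Cx3cr1 and Cd52 were above background on 0 arrays.

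Lamc3 and Lamc1 had passage differences that did not pass after adjustment. Lamc3, a laminin gamma chain of brain and retinal basement membranes, read -3.69 and -4.19 in PNs_CT, -2.17 and -3.73 in PNs_NFIA_OE, -0.05 and -1.19 in SNs_CT, and -2.08 and -2.93 in SNs_NFIA_OE. The SNs_CT pair was the highest and was apart from the other 6 arrays (1.88 ± 0.66 for passage, adjusted p = 0.121). Lamc1, the gamma chain of most laminins, read 1.80 and 1.60 in PNs_CT, 3.19 and 2.71 in PNs_NFIA_OE, 3.04 and 2.97 in SNs_CT, and 3.18 and 2.82 in SNs_NFIA_OE. Only the PNs_CT pair was apart, below arrays that ran from 2.71 to 3.19 (0.68 ± 0.29, adjusted p = 0.181).

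In CT cells alone, 3 of 28 members passed between passages in limma, all higher in secondary neurospheres. Of all genes 0.725% passed upward and 0.138% downward. The 3 members were Itga11, Lama2 and Lama4. At an unadjusted p under 0.05, 9 members were higher and 1, Itga4, was lower, against 6.45% and 7% of all genes. Itga11, the alpha subunit of a collagen receptor of fibroblasts and mesenchyme, read -1.68 and -2.96 in PNs_CT, 0.58 and 0.26 in PNs_NFIA_OE, 3.10 and 2.17 in SNs_CT, and 1.81 and 0.24 in SNs_NFIA_OE. The SNs_CT pair was the highest and the PNs_CT pair the lowest of the 8 arrays. The difference was 4.95 ± 0.64 (31.0-fold, 2 arrays a side, adjusted p = 0.0261 in limma). It lost its call without PNs_CT 1 or 2, PNs_NFIA_OE 1 or 2, or SNs_CT 2 (4.31 to 5.59, adjusted p from 0.0560 to 0.176).

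Lama2 differed by 3.62 ± 0.49 in CT cells (adjusted p = 0.0319) and lost its call without PNs_CT 1, PNs_CT 2 or SNs_CT 2 (3.14 to 4.10, adjusted p from 0.0874 to 0.202). Lama4 read -5.06 and -6.56 in PNs_CT, where it was not well above background, -1.06 and -1.77 in PNs_NFIA_OE, -1.22 and -2.22 in SNs_CT, and -0.77 and -2.01 in SNs_NFIA_OE. The 3 groups other than PNs_CT overlapped fully. Lama4 was at least 7.48-fold higher in SNs_CT than in PNs_CT (4.09 ± 0.65), at an adjusted p of 0.050, just inside the threshold. That call was lost without any 1 of the 8 arrays (adjusted p from 0.0676 to 0.249).

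Mesenchyme markers were higher along with these 3 genes. All 10 were tested, and 9 were higher in SNs_CT than in PNs_CT, with a median difference of 3.56 over the list. In limma 4 passed upward and 0 downward. The summed level of the 10 was 8.86 and 5.53 in PNs_CT, 20.3 and 29.4 in PNs_NFIA_OE, 67.9 and 116 in SNs_CT, and 68.2 and 86.4 in SNs_NFIA_OE. At least 9 of the 10 were above background on both arrays of each group. Their part in the differences of Itga11, Lama2 and Lama4 was not tested, and in bulk RNA fewer cells of a type and less RNA per cell cannot be told apart. Of 6 endothelial markers, Tek and Tie1 were above background on 0 arrays and Cdh5 on 1, while Kdr was above it on 8, Pecam1 on 5 and Cldn5 on 4. The summed level of these 3 lay between 11.2 and 20.1 on the 8 arrays, and their differences between SNs and PNs, all negative, did not pass (2 of 3 at an unadjusted p under 0.05).

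In NFIA_OE cells, 0 of 28 members passed between passages in limma, where 1.89% of all genes did, and 5 members had an unadjusted p under 0.05, against 21.2% of all genes. Lamb2 had the smallest p (1.42 ± 0.27, 2.67-fold, adjusted p = 0.0526). It passed without SNs_CT 1 or SNs_CT 2, as did Itga4 and Itga7, which gave 3 calls in each case.

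The PNs_CT arrays were the lowest for many members, a pattern chosen for description after its values were seen. Both of these arrays were below the 6 others for 13 of 28 members, where this held for 8.16% of all genes. These were Itga1, Itga7, Itga8, Itga9, Itga11, Itgav, Itgb1 and Itgb5 among integrins and Lama2, Lama4, Lama5, Lamb1 and Lamc1 among laminins. The lowest group mean was that of PNs_CT for 18 of 28 members, against 23.2% of all genes, and the highest was that of SNs_NFIA_OE for 13, against 30.3%. PNs_CT served as the control both for NFIA in primary neurospheres and for passage in CT cells, so those comparisons share these arrays. Side by side, the differences were 2.74 and 4.95 for Itga11, 4.40 and 4.09 for Lama4, 1.25 and 1.31 for Lamc1, and 2.22 and 1.82 for Lamb1.

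**Figure D3:**
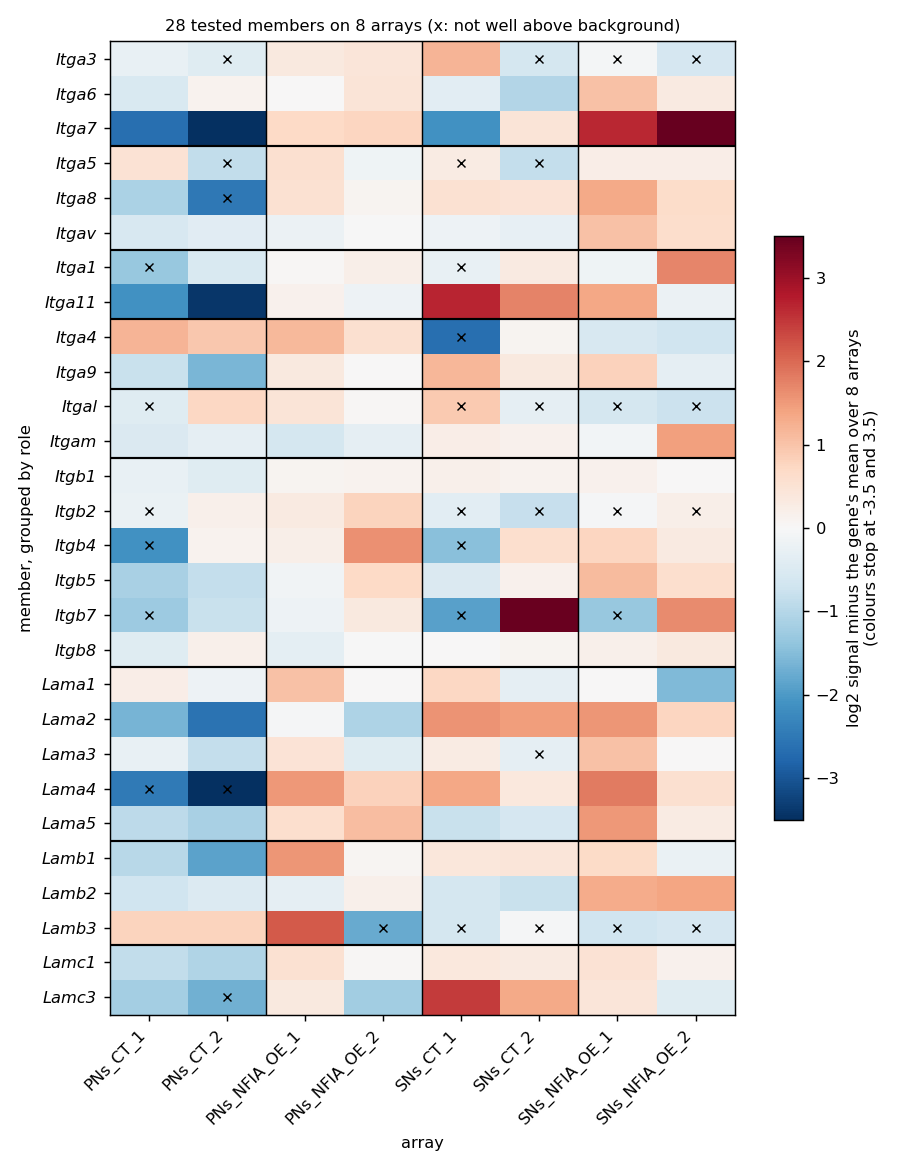
Level of each of the 28 tested members on 8 arrays as the log2 signal minus that gene's mean over the arrays, with members grouped by role and a cross where the signal was not well above background. The PNs_CT columns are the lowest for 13 members, Itga7 runs from -3.43 in PNs_CT 2 to 3.80 in SNs_NFIA_OE 2 before centring, and Itgb7 stands out in SNs_CT 2.

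The other 13 tested members passed in 0 of the 7 comparisons. Itgb1, the common beta subunit of most integrins, had 1.55 and 1.70 as its lowest levels, both in PNs_CT, and lay between 1.97 and 2.15 on the other 6 arrays. Lama1, the alpha chain of early embryonic laminin, lay between 3.39 and 4.74 on 7 arrays and at 2.16 on SNs_NFIA_OE 2. Lamb1, the beta chain of the same trimer, read 1.72 and 0.83 in PNs_CT and from 2.45 to 4.23 elsewhere. Its difference between NFIA_OE and CT in primary neurospheres was 2.22 ± 0.56 and did not pass (adjusted p = 0.212).

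Itga9, an alpha subunit that binds tenascin-C, lay at 0.09 and -0.71 in PNs_CT and from 0.58 to 2.04 elsewhere. Itgb8, the beta subunit that joins alpha v on radial glia and astrocytes, ranged over 0.777 only, from -1.22 to -0.45. Itgb7, which pairs with alpha 4 in lymphocytes, read 0.15 in SNs_CT 2 and -1.66 in SNs_NFIA_OE 2, and at most -2.99 on the other 6 arrays. In SNs_CT 2 the summed level of 5 oligodendrocyte lineage markers was 364, against 6.67 to 91.7 on the other arrays, and its part in the Itgb7 value was not tested.

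Itga1, Itga3, Itga5, Itgal, Itgb4, Lama3 and Lamb3 were dim. Each was well above background on 3 to 7 of the 8 arrays, so their differences rest on signals near the limit of the array. Itga1 and Itga3 take part in receptors for collagen and laminin, and Itga5 in the fibronectin receptor. Itgb4, Lama3 and Lamb3 belong to the anchoring complex of epithelia. Itga1 was read by a second kept probe, whose NFIA difference over both passages was 1.84 against 0.91 for the brighter one.

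Itga2, Itga2b, Itgad and Itgax were well above background on 0 arrays, Itgb6 on at most 1 and Itgb3 on at most 2. These 6 members were not tested. Itga10 and Itgae had no probe with an accession that led to their symbol.

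Other genes of the pathway were followed as 4 lists. Over all genes 17.7% had an unadjusted p under 0.05 for NFIA and 26.3% for passage, and the shares that passed, the shares with a positive difference and the medians are those given above for the members. Of 21 tested basement membrane components and receptors other than laminins and integrins, 1 passed upward and 0 downward for NFIA over both passages. It was Npnt, which encodes nephronectin, at 2.11 ± 0.24 (adjusted p = 0.0133 in limma). The call held without any 1 of the 8 arrays (adjusted p from 0.0171 to 0.0408 in limma). It was lost under 2 other alternatives, and under 1 more, with groups taken from source names, the sign was reversed. Npnt was well above background only on the 4 NFIA_OE arrays, through which its probe was kept for testing. It read -4.60 and -5.47 in PNs_CT and -5.32 and -5.42 in SNs_CT. Its difference and its call therefore rest on CT signals near background. The list's median was 0.72 and 19 genes had a positive difference, with 11 at an unadjusted p under 0.05. Between passages 3 passed upward and 0 downward. They were the collagen chains Col4a1 (2.09 ± 0.41) and Col4a2 (1.60 ± 0.37), and Nid1 (2.25 ± 0.51), which encodes a protein that links laminin to collagen. Nid1 read -0.28 and -0.88 in PNs_CT and from 2.16 to 3.98 on the other 6 arrays. It passed for NFIA in primary neurospheres (3.41 ± 0.45, adjusted p = 0.0411) and for passage in CT cells (3.41 ± 0.45, adjusted p = 0.0278), as did Col4a1 in the latter (2.86 ± 0.46). In that comparison 2 genes of the list passed upward and 0 downward. The passage calls of these genes were each lost without PNs_CT 1 or 2, and most without other single arrays (adjusted p up to 0.113 over both cell types and 0.288 in CT cells). The NFIA call of Nid1 in primary neurospheres was lost without any 1 of the 4 primary arrays or either SNs_NFIA_OE array (adjusted p up to 0.269).

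Of 11 tested integrin ligands, 0 passed over both passages for NFIA or for passage. Tnc, which encodes tenascin-C, had the smallest p in both (3.30 ± 0.84, adjusted p = 0.107, and 3.09 ± 0.84, adjusted p = 0.0654), followed by Thbs1 for NFIA (1.54 ± 0.40, adjusted p = 0.107) and Postn for passage (3.39 ± 0.94, adjusted p = 0.0681). In limma 4 of the 11 had an unadjusted p under 0.05 in each. Tnc read -6.19 and -4.45 in PNs_CT, where it was not well above background, and from -0.59 to 1.17 elsewhere. It passed for NFIA in primary neurospheres (5.37 ± 0.61, adjusted p = 0.0254) and for passage in CT cells (5.16 ± 0.61, adjusted p = 0.0175). The first call was lost without any 1 of the 4 primary arrays or SNs_NFIA_OE 1 or 2 (adjusted p up to 0.196), and the second without PNs_CT 1 or SNs_CT 2 (0.0695 and 0.0731). Cdh1, which encodes E-cadherin, a ligand of an integrin of lymphocytes, was the 1 gene of the list that passed downward in secondary NFIA_OE cells. It was lower by 2.21 against SNs_CT (adjusted p = 0.0412 in limma) and by 3.17 against PNs_NFIA_OE (adjusted p = 0.0204). The first of these calls was lost without any 1 of the 8 arrays (adjusted p from 0.0531 to 0.145), and the second without PNs_CT 1 or 2, PNs_NFIA_OE 1 or SNs_NFIA_OE 1 or 2. Cdh1 is also 1 of 6 tested epithelium markers, whose summed level was 0.72 and 1.02 in SNs_NFIA_OE and from 5.87 to 42.4 elsewhere. That list's median was -2.50 against SNs_CT and -3.37 against PNs_NFIA_OE, with 1 positive gene in each. For 7 pluripotent markers the medians were -1.45 and -2.51, with 2 and 1 positive genes. The part of these cell types in the Cdh1 differences was not tested.

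Among 29 tested adhesion complex proteins of the cytoplasm, 1 gene passed upward for NFIA over both passages and 0 downward. It was Vcl, which encodes vinculin (0.94 ± 0.16, adjusted p = 0.0345 in limma). Fyn, a kinase of the Src family, was the 1 gene that passed upward for passage (1.28 ± 0.24, adjusted p = 0.0274 in limma), and 0 passed downward. The Vcl call was lost without any 1 of the 8 arrays (adjusted p from 0.0511 to 0.138) and the Fyn call without any but the SNs_CT arrays (up to 0.0926). The list's medians were 0.29 and 0.08. Of 8 membrane partners, such as tetraspanins, 0 passed in limma, 4 and 3 had an unadjusted p under 0.05, and Cav1 had the smallest p in both comparisons (1.22 ± 0.43, adjusted p = 0.209, and 1.40 ± 0.43, adjusted p = 0.0896). No list had a gene whose NFIA effect differed between passages after adjustment in limma, and 6, 3, 1 and 1 genes of the 4 lists, in the order given, had an unadjusted p under 0.05.

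**Figure D4:**
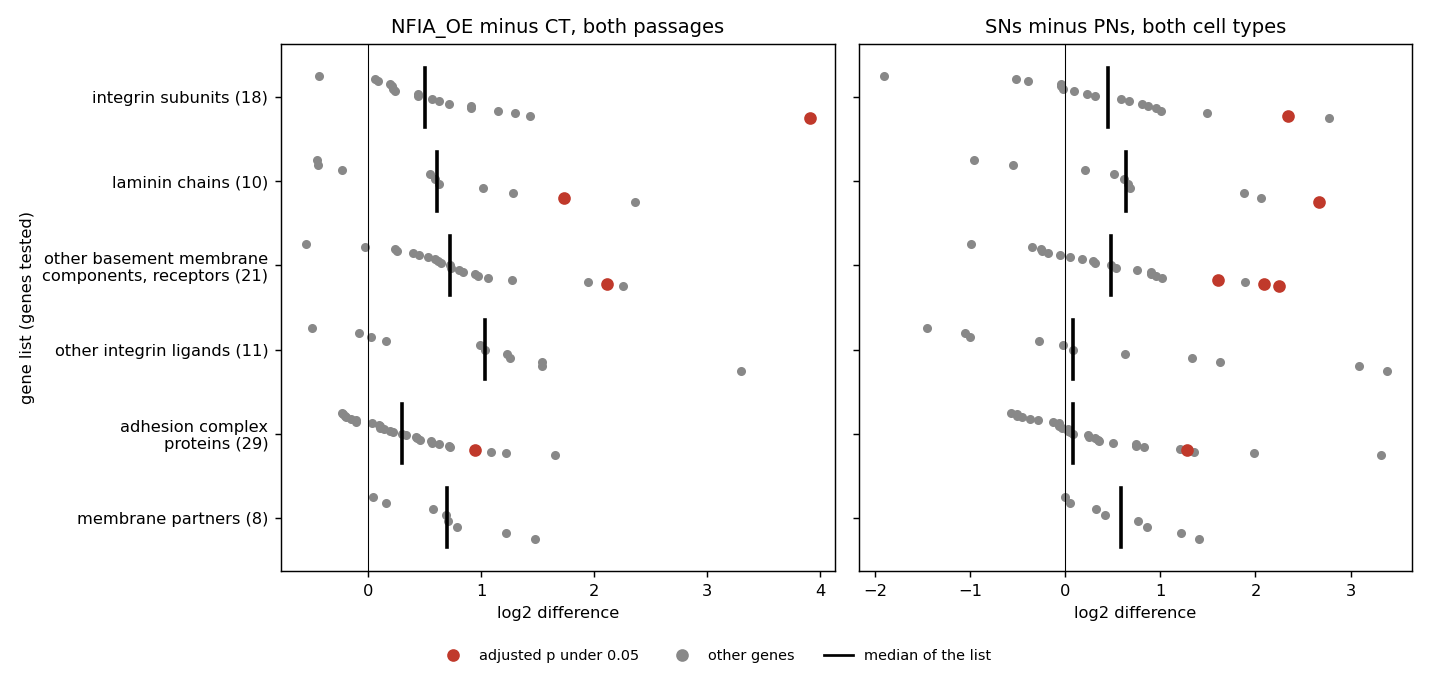
Log2 difference of each tested gene for NFIA_OE minus CT over both passages (left) and for SNs minus PNs over both cell types (right), by list, with red points at an adjusted p under 0.05 and a bar at each list's median. Itga7 at 3.91 is the largest difference on the left, and the medians of the integrin and laminin members (0.50 and 0.61 on the left) lie above 0.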

How the data were processed

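The 8 one-colour Agilent arrays of 1 slide were labelled with Cy3 from 50 ng of RNA, per the labels. Per the file headers, the deposited scanner files come from Feature Extraction 10.5.1.1 and hold a background-subtracted, detrended intensity per spot, with flags of other kinds, 0 or 1, while the submitters' processing notes name version 10.7.3.1. The authors' value table holds log2 values that, judged from the values, were scaled to an array's 75th percentile and then centred per probe on the median of the 8 arrays (largest absolute median 0.000245).

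Columns of that table correlated with 1 scanner file each at 0.999858 or more and with the rest at 0.339 or less, and PNs_CT 2 was the only sample whose own attached file was the match. Here log2 intensities minus the 75th percentile of the array were used, with arrays named by that match and groups taken from the titles. Array levels correlated by 0.968 on average within groups and 0.938 between them. Probes flagged as outliers (126) were left out, 0 spots were saturated, 26010 of 55555 probes were named through RefSeq accessions, and the brightest kept probe stood for each of 13790 genes, 3644 of which had several. Probes were kept where both replicates of some group were well above background.

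Tests used limma 3.58.1 in R 4.3.3, with Benjamini-Hochberg adjustment over all genes of a comparison and a threshold of 0.05. A model with terms for cell type and passage gave the comparisons over both passages or both cell types, and a model of 4 group means gave the others. The tests were tested on simulated data. Alternatives changed the background correction (normexp, offset 50), scaling, filter, probe rule, source of the values, grouping, replicate block and each array in turn. The planned normexp on mean signals used median signals, which the files hold. The crossed block and the omission of both NFIA_OE arrays with a WT source name were chosen after seeing the data. Of the genes that match the rule, 1 is not reported here. Members and lists were chosen with earlier results of these data known. Values on every array are given for members that passed in any comparison, had an unadjusted p under 0.05 over both passages or both cell types, or had no overlap between 4 and 4 arrays. For the other lists, values are given for genes that passed, or else for the pair with the smallest p.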

Additional observations from a re-analysis of the deposited data

How the results depend on the processing

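The counts of members that passed in limma were 2 for NFIA over both passages, 2 for passage over both cell types, 0 for NFIA in PNs, 1 for NFIA in SNs, 3 for passage in CT cells, 0 for passage in NFIA_OE cells and 0 for the difference of the NFIA effect. In that order, leaving out each array in turn gave 0 to 2, 0 to 3, 0 to 1, 0 to 3, 0 to 3, 0 to 3 and 0 to 0. With no filter on dim probes the counts were 1, 1, 0, 0 and 0 in the first 5. Normexp gave 2 in SNs and 1 for passage in NFIA_OE cells. Quantile normalization gave 1 for passage over both cell types and 1 for passage in NFIA_OE cells. Probes well above background on all 8 arrays gave 1 for passage in NFIA_OE cells, and the mean of a gene's probes gave 1 there. With 2 groups fitted alone there were 2 in PNs (Itga7 and Lama4), 0 in SNs and 0 for passage in CT cells. The authors' value table left every one of the 7 counts as it was. Without both NFIA_OE arrays of WT source name, 1 passed for NFIA over both passages (Lama5) and 0 for passage over both cell types.

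The labels do not pair equal replicate numbers. Deviations of equally numbered arrays correlated by 0.445 in PNs, 0.484 in SNs, -0.188 between passages in CT cells and 0.0419 in NFIA_OE cells. With the replicate number as a block, 0 members passed for passage over both cell types, 4 (Itga6, Itga7, Lamb2 and Lamc3) for NFIA in SNs, and 1 (Lama4) in PNs. The crossed pairing gave 1 for passage over both cell types and 0 in CT cells.

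With scanner files as attached, or with source names for groups, 0 members passed in each of the 7 comparisons. These 2 settings alone turned signs of the differences given above. With attached files, the NFIA difference over both passages was -0.12 for Itga7, -0.76 for Lamb2, -0.47 for Itga6 and -0.34 for Itgav, and in SNs it was -0.81 for Lamb2, -1.27 for Itga7 and 1.81 for Cdh1. The passage difference was -0.17 for Itga7, -0.17 for Itgav, -0.57 for Itgb5, -0.23 for Fyn and -0.20 for Nid1, in CT cells -0.14 for Itga11 and -0.76 for Tnc, and in NFIA_OE cells -0.18 for Lamb2 and 0.21 for Cdh1. The difference between NFIA effects was 0.77 for Itga11, 0.73 for Lama4 and -0.10 for Lamb2.

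With source names, the NFIA difference over both passages was -2.94 for Itga7, -0.58 for Lama5, -0.71 for Lamb2, -0.32 for Itgb5, -0.28 for Itgav, -0.23 for Itga6, -0.78 for Itga8, -0.34 for Itgb2, -1.40 for Lama4, -1.69 for Npnt and -0.59 for Vcl. In PNs it was -3.41 for Lama4, -2.48 for Itga7, -2.46 for Lamb1, -2.31 for Nid1 and -3.03 for Tnc, and in SNs -1.42 for Lamb2, -3.41 for Itga7 and 1.67 for Cdh1. In CT cells the passage difference was -0.34 for Itga11 and -0.95 for Lama4. The difference between NFIA effects was 4.16 for Itga11, 4.01 for Lama4 and -1.41 for Lamb2. The cause was not tested.

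Over all alternatives the adjusted p ran from 0.0185 to 0.987 for Lamb2 in SNs, 0.0200 to 1.00 for Lama5 and 0.00869 to 1.00 for Itga7 with NFIA. For passage it ran from 0.0114 to 1.00 for Lama2 and 0.0151 to 1.00 for Itga7, and in CT cells from 0.0134 to 1.00 for Itga11, 0.0216 to 1.00 for Lama2 and 0.0316 to 1.00 for Lama4. Aside from source names, attached files and the changed filters on dim probes, the number of members with a positive NFIA difference over both passages lay between 21 and 24. Signals near background limit Lama4 in PNs_CT and the 7 dim members. They also limit Itgb2 and Itgb7, well above background on 3 and 5 arrays, and among the other lists Npnt in CT cells and Tnc in PNs_CT.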
